A study of Mus musculus with 5 samples.

Results

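The genes Hnf4a, Pax8, Pax2, Gata3, Tfcp2l1, Hoxb7, Hoxd8 and Emx1 encode transcription factors used as markers of nephron segments, and their levels were followed along the tubule of the mouse kidney. They were selected by symbol, and each of the 8 had a row in all 5 count tables, which together listed 16934 genes. The study prepared Drop-seq libraries, in which a bead barcode stands for 1 cell and unique molecular identifiers (UMIs) count the captured transcripts, from kidneys of wild-type mice of a strain the labels spell C56BL/6N. Microdissected cortex, outer medulla and inner medulla gave 1 library each, and whole kidney gave 2. All libraries share the same cold digestion and methanol fixation, no treatment or second genotype was compared, and the labels give neither the number nor the age of the animals. The region libraries therefore stand for 1 library each, and region and library cannot be told apart.

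The nephron runs from the glomerulus through the proximal tubule, the loop of Henle with its thick ascending limb, the distal convoluted tubule and the connecting tubule into the collecting duct, where principal cells handle water and sodium and intercalated cells handle acid and base. Each segment carries its own transporters, and transcription factors that stay on in the adult segment help to keep that program. Hnf4a, a nuclear receptor, is known for its role in proximal tubule maturation. Pax2 and Pax8 are paired-box factors needed to form the kidney, Gata3 is a zinc-finger factor of the nephric duct and the collecting system, Tfcp2l1 belongs to the grainyhead family and acts in the collecting duct, Hoxb7 and Hoxd8 are homeobox genes of the Hox clusters, and Emx1 is a homeobox gene best known from the forebrain.

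Barcodes with at least 200 detected genes numbered 12121, of which 12099 were kept, between 894 in the inner medulla and 3304 in whole kidney 2, with median depths of 440 to 516.5 UMIs per cell. Cells were clustered without the 8 factors or any other listed factor, and clusters were given a class name with the suffix -like from marker genes, as proximal tubule-like (PT), thick ascending limb-like (TAL), distal convoluted tubule-like (DCT), connecting tubule-like (CNT), principal cell-like (PC) and intercalated cell-like (IC). By these classes PT-like cells made up 73.4% of the cortex cells, 63.4% of the outer medulla cells and 10.1% of the inner medulla cells, and PC-like cells 2.21%, 6.98% and 52.9%. Whether each cell came from the region its library names, or from tissue beside it in the dissection, was not tested. Libraries shared 6 cell barcodes in all. Over the kept cells the tables held 1803 UMIs of Hnf4a, 990 of Hoxd8, 764 of Tfcp2l1, 690 of Hoxb7, 484 of Emx1, 449 of Pax8, 268 of Gata3 and 200 of Pax2. Levels are therefore given as counts per 1000000 UMIs (CPM) of all cells of a class in a library, with the UMI counts behind them.

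Promoter sequence is shown for a factor that was high in PT-like cells, Hnf4a, and for a pair that was low there, Hoxd8 and Gata3. The PT-like levels of Hnf4a and Hoxd8 overlapped with no distal class, while Gata3 also had 0 UMIs in TAL-like cells. RefSeq promoters matched 7 of the 8 symbols on GRCm38.p6, and the 250 bases upstream of each listed start were searched on both strands for the GATA motif AGATAA, the TFCP2L1-type pair of CCNG and CCNG with 6 bases between them, and the nuclear receptor direct repeat of AGGTCA with an A between the repeats. Hnf4a has a pair of starts, and the upstream one is printed, since the downstream one held no match. Capitals mark matches, and each sequence runs 5′ to 3′ on the strand of its gene.
Hnf4a, chr2:163506607-163506856, plus strand: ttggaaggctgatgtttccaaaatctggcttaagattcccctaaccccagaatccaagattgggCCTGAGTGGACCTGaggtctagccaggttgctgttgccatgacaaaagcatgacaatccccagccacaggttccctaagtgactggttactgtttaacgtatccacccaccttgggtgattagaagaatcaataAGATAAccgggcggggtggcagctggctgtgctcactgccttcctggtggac
Hoxd8, chr2:74704365-74704614, plus strand: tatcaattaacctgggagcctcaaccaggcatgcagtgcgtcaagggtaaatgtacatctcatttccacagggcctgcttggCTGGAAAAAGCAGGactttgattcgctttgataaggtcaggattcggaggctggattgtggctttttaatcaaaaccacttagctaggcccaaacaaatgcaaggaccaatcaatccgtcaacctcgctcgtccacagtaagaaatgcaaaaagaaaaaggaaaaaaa
Gata3, chr2:9878601-9878850, minus strand: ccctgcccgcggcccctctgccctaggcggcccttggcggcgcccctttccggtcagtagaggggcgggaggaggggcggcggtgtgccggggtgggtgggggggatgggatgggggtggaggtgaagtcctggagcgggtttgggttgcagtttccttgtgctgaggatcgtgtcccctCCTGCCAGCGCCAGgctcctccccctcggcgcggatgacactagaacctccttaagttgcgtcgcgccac
The upstream Hnf4a promoter held 1 TFCP2L1-type pair and 1 AGATAA, which do not overlap, the Hoxd8 promoter 1 TFCP2L1-type pair, and the Gata3 promoter 1 TFCP2L1-type pair. The promoters of Tfcp2l1, Pax8 and Emx1, not printed, held no match of any motif. The Pax2 starts held 0, 2 and 2 TFCP2L1-type pairs and no other match. The printed promoters, all with a match, therefore do not stand for the members as a set. Among all 32851 promoters in the table, 9.99% held AGATAA, 24.9% the TFCP2L1-type pair and 0.015% the direct repeat. A match is a string of letters and not a bound site, and the 3′ tags of Drop-seq cannot tell from which start a transcript came.

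Hnf4a was higher in PT-like cells than in every distal class. PT-like sums of cortex, outer medulla, inner medulla, whole kidney 1 and whole kidney 2 held 448, 276, 9, 360 and 565 Hnf4a UMIs, which correspond to 224, 217, 166, 240 and 231 CPM. The 5 libraries sat close together, at 216 ± 29.0 CPM (SD, n = 5), and none overlapped with any distal class, whose 23 sums ran from 0 to 88.3 CPM. The distal means were 63.0 ± 18.8 CPM in CNT-like cells (SD, n = 4), 43.5 ± 11.5 in DCT-like cells (n = 4), 29.1 ± 27.8 in IC-like cells (n = 5), 27.8 ± 21.7 in TAL-like cells (n = 5) and 21.8 ± 21.4 in PC-like cells (n = 5). Each of these neighbours in the order overlapped with the next. Summed over libraries, Hnf4a was 6.30-fold higher in PT-like than in distal cells (1658 against 61 UMIs, 95% interval 4.88 to 8.28, which, like all intervals here, covers counting error only). The fitted difference from the mean of the distal classes was 2.83 ± 0.22 on the log2 scale (SE, edgeR quasi-likelihood test, adjusted p = 7.694e-26). With each cell's class taken from its own marker score and not its cluster, the difference was 1.10, and with free RNA subtracted from each sum it was 6.05.

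The distal Hnf4a level was set beside an estimate of what free RNA in the droplets could contribute. The estimate takes all PT marker UMIs of distal sums as free RNA, although doublets remain. PT markers made up 0.809% to 2.59% of the UMIs of distal sums outside the inner medulla, against 5.51% to 6.32% in barcodes with under 100 detected genes, and this ratio puts the free RNA share of a distal sum at 12.8% to 41.0% (2.59% to 12.2% in the inner medulla). At those shares the Hnf4a level of the same nearly empty barcodes would contribute 1.44 to 70.2 CPM. The interval of Hnf4a lay above that contribution in 1 of the 23 distal sums, CNT-like cells of the cortex. Distal classes held 6 to 21 Hnf4a UMIs each over all libraries, so these intervals are wide. The source of the distal Hnf4a UMIs was not tested. In the inner medulla, where nearly empty barcodes held 55.7 CPM of Hnf4a, the PC-like sum had 0 Hnf4a UMIs in 300622. Cluster 8, an unnamed cluster led by MHC class II genes of antigen-presenting cells, held 67 Hnf4a UMIs, or 248 ± 86.1 CPM (SD, n = 4). PT markers took 4.71% to 6.41% of the UMIs of unnamed cells in the same 4 libraries, and their part in that Hnf4a level was not tested. The reads of Hnf4a cannot be told apart from those of the opposite-strand gene Hnf4aos, which had 390 UMIs over all barcodes, since the strand used in counting is not given.

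**Figure D1:**
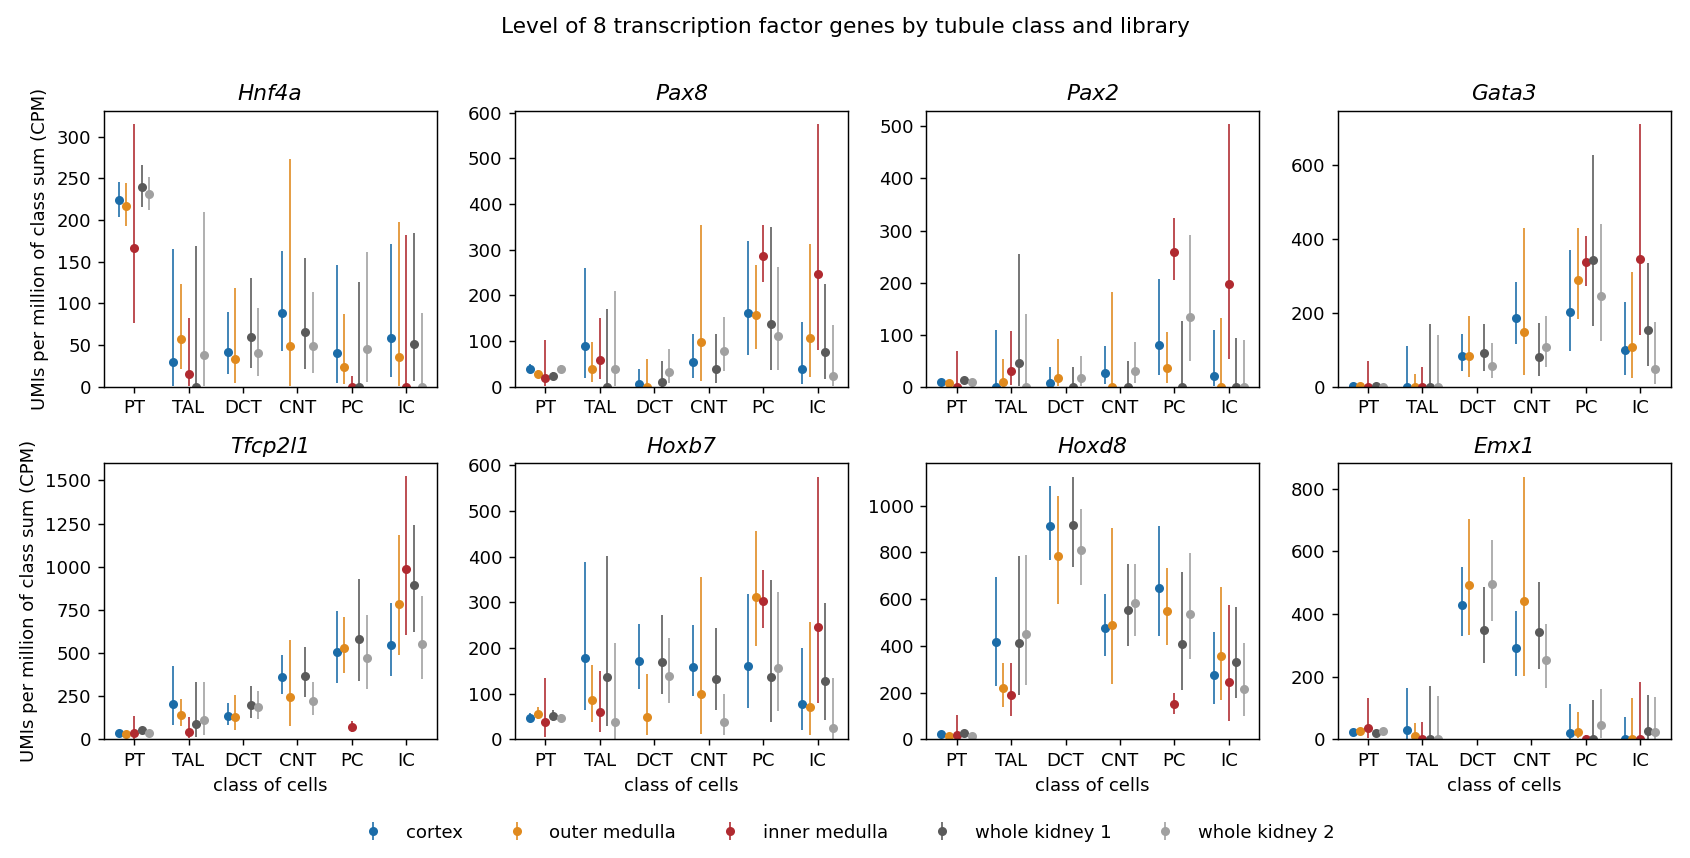
Level of each factor in CPM (y axis, scale set per gene) in 6 classes of tubule cells (x axis: PT proximal tubule-like, TAL thick ascending limb-like, DCT distal convoluted tubule-like, CNT connecting tubule-like, PC principal cell-like, IC intercalated cell-like), with 1 point per library and exact Poisson 95% intervals as bars. Hnf4a stood at 166 to 240 CPM in PT-like cells and at most at 88.3 CPM elsewhere, Gata3 was at 0 in all 5 TAL-like sums, and the inner medulla point of Tfcp2l1 in PC-like cells sat at 69.9 CPM while the other libraries were at 470 CPM or more.

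Within the proximal tubule, Hnf4a was higher in a cluster led by early-segment markers than in one of like depth with more late-segment markers. Cluster 4, in which markers of the S1 and S2 segments took 1.23% to 1.43% of UMIs, held Hnf4a at 250, 286, 342 and 308 CPM in cortex, outer medulla, whole kidney 1 and whole kidney 2. Cluster 3 held 214, 174, 220 and 174 CPM in the same libraries. There S3 markers took 0.531% to 0.666% of its UMIs and S1 and S2 markers 0.373% to 0.483%, so it was mixed. Cluster 4 was higher in 4 of 4 libraries, by 1.17-fold in the cortex (95% interval 0.926 to 1.49), 1.64-fold in the outer medulla (1.20 to 2.25), 1.56-fold in whole kidney 1 (1.20 to 2.01) and 1.77-fold in whole kidney 2 (1.43 to 2.19). The interval of the cortex includes no difference. The cells of these clusters had median depths of 940.5 UMIs or more, while the shallower clusters 0, 1 and 2 had Hnf4a means of 229, 164 and 232 CPM. The mean of cluster 1 includes an inner medulla sum with 1 Hnf4a UMI (59.1 CPM), where clusters 0 and 2 had no sum. In cortex, outer medulla, whole kidney 1 and whole kidney 2 cluster 1 had 202, 163, 166 and 233 CPM. Tfcp2l1 had the same order at a low level, with 53.8, 43.7, 71.4 and 55.0 CPM in cluster 4 and 19.5, 19.1, 40.1 and 25.1 CPM in cluster 3, and the ratio had an interval above 1 in the cortex (1.40 to 5.71) and whole kidney 2 (1.27 to 3.86) but not in the outer medulla (0.905 to 6.06) or whole kidney 1 (0.974 to 3.25). No test was made between clusters, because they were cut from the same cells.

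**Figure D2:**
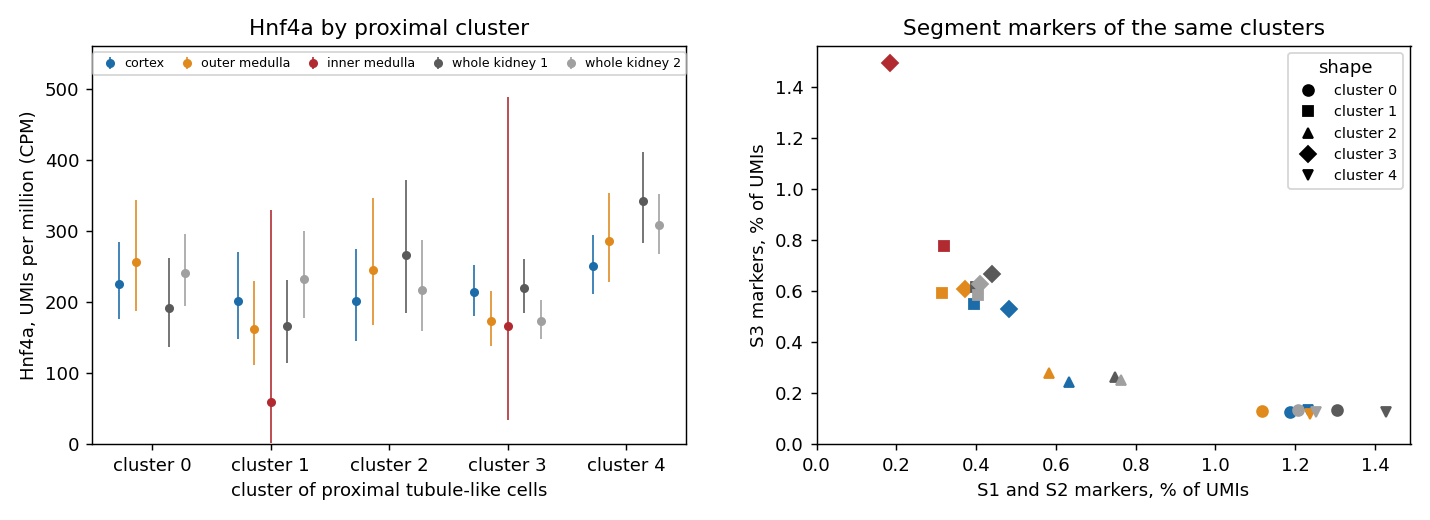
Left: Hnf4a level (CPM, y axis) in the 5 clusters of PT-like cells (x axis), 1 point per library with exact Poisson 95% intervals as bars; right: share of UMIs taken by S1 and S2 markers (x axis, %) and by S3 markers (y axis, %) in the same sums, with the cluster given by shape and the library by colour. Cluster 4 was at 250 to 342 CPM and sat at the S1 and S2 end. Cluster 3, at 167 to 220 CPM, was mixed, with S3 markers at 0.531% or more and S1 and S2 markers at 0.184% to 0.483%. Its highest S3 share, 1.49%, was of an inner medulla sum of 20 cells.

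Across PT-like cells of the regions no factor differed by 2-fold between outer medulla and cortex: 0 of the 7 members with at least 10 UMIs in both sums together were 2-fold apart, against 8.48% of all genes measured so. The Hnf4a ratio of outer medulla to cortex was 0.969 (95% interval 0.831 to 1.13), and whole kidney 2 over whole kidney 1, a gauge of the spread between libraries of 1 kind, gave 0.963 (0.842 to 1.10). The inner medulla contributed 90 PT-like cells, and its 9 Hnf4a UMIs gave a ratio to the cortex of 0.742 (0.337 to 1.42). By the 2-fold rule 2 of 7 members were lower there than in the cortex, Pax8 with 1 UMI (0.467, 0.0117 to 2.68) and Pax2 with 0 against 19 UMIs, for which the floor of 3 counts (55.4 CPM) lies above the cortex level of 9.50 CPM, where 51.8% of genes passed and 35.4% were lower.

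Hoxd8 was low in PT-like cells and higher in all 5 distal classes. DCT-like cells carried 134, 48, 92 and 100 Hoxd8 UMIs in cortex, outer medulla, whole kidney 1 and whole kidney 2, or 914, 787, 917 and 812 CPM. These levels (858 ± 68.1 CPM, SD, n = 4) did not overlap with the next class, CNT-like cells at 526 ± 50.1 CPM (n = 4). The fit of DCT-like against CNT-like cells made no call for Hoxd8, however. Below the CNT-like mean PC-like cells (459 ± 192 CPM, n = 5), TAL-like cells (338 ± 123, n = 5) and IC-like cells (285 ± 58.1, n = 5) overlapped one another in that order, and PT-like cells lay apart at 19.9 ± 4.83 CPM (n = 5). The place of PC-like below CNT-like cells rests on 150 CPM in the inner medulla, a library without a CNT-like sum. Elsewhere PC-like cells had 410 to 646 CPM and overlapped with CNT-like cells. Over the 4 libraries with both, the summed CNT-like to PC-like ratio was 0.965 (95% interval 0.755 to 1.24). Hoxd8 was 24.1-fold lower in PT-like than in distal cells when libraries were summed (95% interval 20.2 to 28.9), and the fit gave -4.31 ± 0.22 on the log2 scale (edgeR adjusted p = 4.889e-45). Hoxd8 also fell from DCT-like to TAL-like cells, by 1.24 ± 0.26 on the log2 scale (edgeR adjusted p = 0.000495). Without the outer medulla library this step was -0.98 with an adjusted p of 0.11, and with classes from a marker score per cell it was 0.03 with an adjusted p of 0.99. The opposite-strand gene Hoxd3os1 overlaps Hoxd8 and had 228 UMIs over all barcodes, so their reads may be shared.

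Emx1 was high in the DCT-like and CNT-like classes, which neighbour each other along the tubule. It stood at 430, 492, 349 and 495 CPM in DCT-like cells of cortex, outer medulla, whole kidney 1 and whole kidney 2 (63, 30, 35 and 61 UMIs) and at 292, 442, 343 and 252 CPM in CNT-like cells (33, 9, 26 and 26 UMIs). These classes overlapped with each other and with no other class, since the highest Emx1 level elsewhere was 44.8 CPM, in PC-like cells of whole kidney 2. TAL-like cells had 2 Emx1 UMIs over all 5 libraries, IC-like cells 2 and PC-like cells 5. Over the 4 libraries with both classes, DCT-like cells were 41.2-fold above TAL-like cells (189 against 2 UMIs, 95% interval 11.2 to 342), and CNT-like cells 12.5-fold above PC-like cells (94 against 5 UMIs, 5.15 to 39.2). In the fits Emx1 fell by 5.50 ± 0.61 on the log2 scale from DCT-like to TAL-like cells (edgeR adjusted p = 1.591e-13) and was 4.28 ± 0.56 higher in CNT-like than in PC-like cells (edgeR adjusted p = 2.153e-10). With classes from a marker score per cell the first of these was -0.80 (edgeR adjusted p = 0.40), and with a minimum of 500 genes per cell the second was 2.22 (edgeR adjusted p = 0.82). The summed CNT-like level was 0.686 times the DCT-like one, with a counting interval of 0.530 to 0.883, while the libraries of these classes overlapped and the fit made no call. Emx1 in PT-like cells, 26.8 ± 6.36 CPM (n = 5), was not called different from the distal mean (-0.75, edgeR adjusted p = 0.18), a mean of logs over classes with and without the gene. Summed over libraries it was 7.03-fold lower in PT-like than in distal cells (179 against 292 UMIs, 5.82 to 8.52).

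Gata3 was highest on average in PC-like cells, was not detected in TAL-like cells and had 7 UMIs in all PT-like cells. PC-like cells carried 10, 24, 101, 10 and 11 Gata3 UMIs in cortex, outer medulla, inner medulla, whole kidney 1 and whole kidney 2, or 202, 288, 336, 341 and 246 CPM (283 ± 59.6, SD, n = 5). IC-like cells followed at 97.9, 107, 345, 153 and 48.1 CPM, CNT-like cells at 130 ± 46.6 CPM (n = 4) and DCT-like cells at 77.6 ± 14.3 CPM (n = 4), each overlapping with the next. The place of IC-like above CNT-like cells rests on the 345 CPM of the inner medulla, from 7 UMIs, a library without a CNT-like or DCT-like sum. TAL-like cells had 0 Gata3 UMIs in 255753, where 3 counts, the limit that a count of 0 allows, would be 11.7 CPM, and PT-like cells had 7 in 7272466. In PT-like and TAL-like cells the interval lay above the free RNA contribution in none of the 10 sums. Gata3 was at least 4.79-fold lower in TAL-like than in DCT-like cells over the 4 libraries with both, against the floor of 3 counts over the group, and the difference was called (edgeR adjusted p = 2.446e-05), though not with classes from a marker score per cell (-1.87, edgeR adjusted p = 0.38). Against PC-like cells it was at least 26.2-fold lower in TAL-like cells over 5 libraries, and at least 16.6-fold lower without the inner medulla, which held 101 of the 156 Gata3 UMIs of PC-like cells. Between PT-like and distal cells the ratio of the summed levels was 156-fold (0.963 against 150 CPM, 95% interval 74.5 to 391), and the fit against the mean of the distal classes gave no p because of the zeros. The same-strand gene 9230102O04Rik overlaps Gata3 and had 218 UMIs over all barcodes.

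Tfcp2l1 had its highest mean level in IC-like cells and its lowest in PT-like cells. IC-like cells had 548, 782, 986, 895 and 553 CPM in cortex, outer medulla, inner medulla, whole kidney 1 and whole kidney 2 (28, 22, 20, 35 and 23 UMIs), a mean of 753 ± 198 (SD, n = 5). PC-like cells had 504, 527, 69.9, 581 and 470 CPM, of which the inner medulla alone fell below every CNT-like level. The order went on with CNT-like cells at 300 ± 76.6 CPM (n = 4), which did not overlap with DCT-like cells at 163 ± 34.7 (n = 4), then TAL-like cells at 120 ± 60.8 (n = 5) and PT-like cells at 39.0 ± 10.0 (n = 5). Tfcp2l1 was lower in PT-like cells than in the distal mean by -2.69 ± 0.21 on the log2 scale (edgeR adjusted p = 4.318e-25) and higher in CNT-, PC- and IC-like cells than in TAL- and DCT-like cells by 1.76 ± 0.21 (edgeR adjusted p = 5.673e-12). It was lower in DCT-like than in CNT-like cells by -1.11 ± 0.31 (edgeR adjusted p = 0.0244), a call lost in 8 of 18 alternatives, where the adjusted p reached 0.48. Among these were the fits without the cortex (-0.87, edgeR adjusted p = 0.43), the outer medulla (-1.16, 0.057) and the whole kidney 1 library (-1.16, 0.17). PC-like cells were lower than IC-like cells by -0.83 ± 0.27 (edgeR adjusted p = 0.0411). Without the inner medulla library that difference was -0.26 with an adjusted p of 0.71, without the outer medulla -0.99 with 0.059 and without whole kidney 1 -0.89 with 0.11.

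Pax8 and Pax2 had their highest mean levels in PC-like cells, with the inner medulla above the other libraries. Pax8 had 8, 13, 86, 4 and 5 UMIs in PC-like cells of cortex, outer medulla, inner medulla, whole kidney 1 and whole kidney 2, or 161, 156, 286, 137 and 112 CPM (170 ± 67.5, SD, n = 5). It followed in IC-like cells at 98.6 ± 88.8 CPM (n = 5), CNT-like cells at 67.1 ± 26.0 (n = 4), TAL-like cells at 44.7 ± 32.6 (n = 5) and PT-like cells at 29.1 ± 9.33 (n = 5), and its lowest level was 12.3 ± 14.1 in DCT-like cells (n = 4, 6 UMIs in all). The IC-like mean includes 247 CPM from 5 UMIs in the inner medulla, where CNT-like and DCT-like cells were too few for a sum. In the other libraries IC-like cells had 24.0 to 107 CPM, so their place above CNT-like cells rests on that sum. All neighbours in this order overlapped. Pax8 was higher in CNT-, PC- and IC-like cells than in TAL- and DCT-like cells by 2.03 ± 0.39 on the log2 scale (edgeR adjusted p = 3.432e-05). Its difference between DCT-like and CNT-like cells, -2.31 ± 0.66 (edgeR adjusted p = 0.0305), rests on 6 against 19 UMIs and was lost in 9 of 18 alternatives, among them the fits without the cortex, the outer medulla, whole kidney 1 or whole kidney 2 (edgeR adjusted p from 0.067 to 0.22). Between PT-like cells and the distal mean Pax8 was not called (-0.47, edgeR adjusted p = 0.184), while summed over libraries it was 2.99-fold lower in PT-like than in distal cells (241 against 167 UMIs, 2.44 to 3.65). Of these 167 distal UMIs, 86 were of inner medulla PC-like cells, while that library gave 90 of the 8323 PT-like cells. The summed ratio therefore mixes class with library.

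Pax2 had 4, 3, 78, 0 and 6 UMIs in PC-like cells, or 80.7, 36.0, 259, 0 and 134 CPM. The inner medulla stood above the other 4 libraries. In the other distal classes Pax2 was between 0 and 45.8 CPM, apart from IC-like cells of the inner medulla with 4 UMIs and 197 CPM, and in PT-like cells it was between 0 and 12.0 CPM. None of the 6 class comparisons called Pax2, and the nearest was CNT-, PC- and IC-like cells against TAL- and DCT-like cells (1.80 on the log2 scale, edgeR adjusted p = 0.0527). Left without cluster 9, a cluster of the inner medulla described further on, that comparison gave 1.89 with an adjusted p of 0.0444. Among PT-like clusters, 20 Pax2 UMIs fell in cluster 0, 0 in cluster 1, 4 in cluster 2, 20 in cluster 3 and 22 in cluster 4, with means of 20.2, 0, 6.34, 5.80 and 10.99 CPM, and the ratio of cluster 4 to cluster 3 had an interval that includes 1 in all 4 libraries.

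Hoxb7, whose promoter is widely used to drive transgenes in the ureteric bud and collecting duct, was found in all 6 classes. PC-like cells had 161, 312, 303, 137 and 157 CPM in cortex, outer medulla, inner medulla, whole kidney 1 and whole kidney 2 (8, 26, 91, 4 and 7 UMIs), a mean of 214 ± 85.8 (SD, n = 5). DCT-, IC-, CNT- and TAL-like cells averaged 132, 110, 107 and 99.4 CPM and overlapped with one another. The IC-like mean includes 247 CPM from 5 UMIs in the inner medulla, a library without a DCT-like or CNT-like sum. PT-like cells were at 47.4 ± 6.94 CPM (n = 5), lower than the distal mean by -1.06 ± 0.22 on the log2 scale (edgeR adjusted p = 1.785e-05). Hoxb7 was 1.40 ± 0.41 higher in PC-like than in IC-like cells (edgeR adjusted p = 0.0207). Without the outer medulla library this was 1.12 with an adjusted p of 0.22, without the cortex library 1.44 with 0.055 and without whole kidney 2 1.27 with 0.084.

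Counted over members, PT-like cells against the mean of the distal classes called 1 higher (Hnf4a) and 3 lower (Hoxb7, Hoxd8, Tfcp2l1) of 7 fitted, where 34.0% of all genes were called in either direction, 18.7% higher and 15.2% lower. The background of each comparison includes the genes from which the clusters were made, so it is high by construction and the members' share is not read as unusual. With the classes of each side summed before the fit, which asks about total levels and not the mean of logs, all 8 members were called, 1 higher and 7 lower, where 38.0% of genes were called, 13.8% higher and 24.2% lower. TAL-like against DCT-like cells called 3 of 8, all lower (Gata3, Hoxd8, Emx1), where 2.13% of genes were called and 0.928% were lower, and with classes from a marker score per cell 0 of the 8 were called. DCT-like against CNT-like cells called 2 of 8, both lower (Pax8, Tfcp2l1), where 2.33% of genes were called and 1.65% were lower. CNT-like against PC-like cells called 1 of 8, Emx1, which was higher, where 4.21% were called and 1.97% were higher. PC-like against IC-like cells called 2 of 8, Hoxb7 higher and Tfcp2l1 lower, where 5.52% were called, 3.22% higher and 2.30% lower, and Gata3 gave 1.14 with an adjusted p of 0.054. CNT-, PC- and IC-like against TAL- and DCT-like cells called 3 of 8, all higher (Gata3, Pax8, Tfcp2l1), where 8.15% were called and 5.02% were higher. In the order given, the members' median log2 differences were -0.80, -0.51, -0.91, -0.57, 0.98 and 1.08, beside 0.01, 0.00, -0.16, -0.28, 0.32 and 0.23 over all genes tested.

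**Figure D3:**
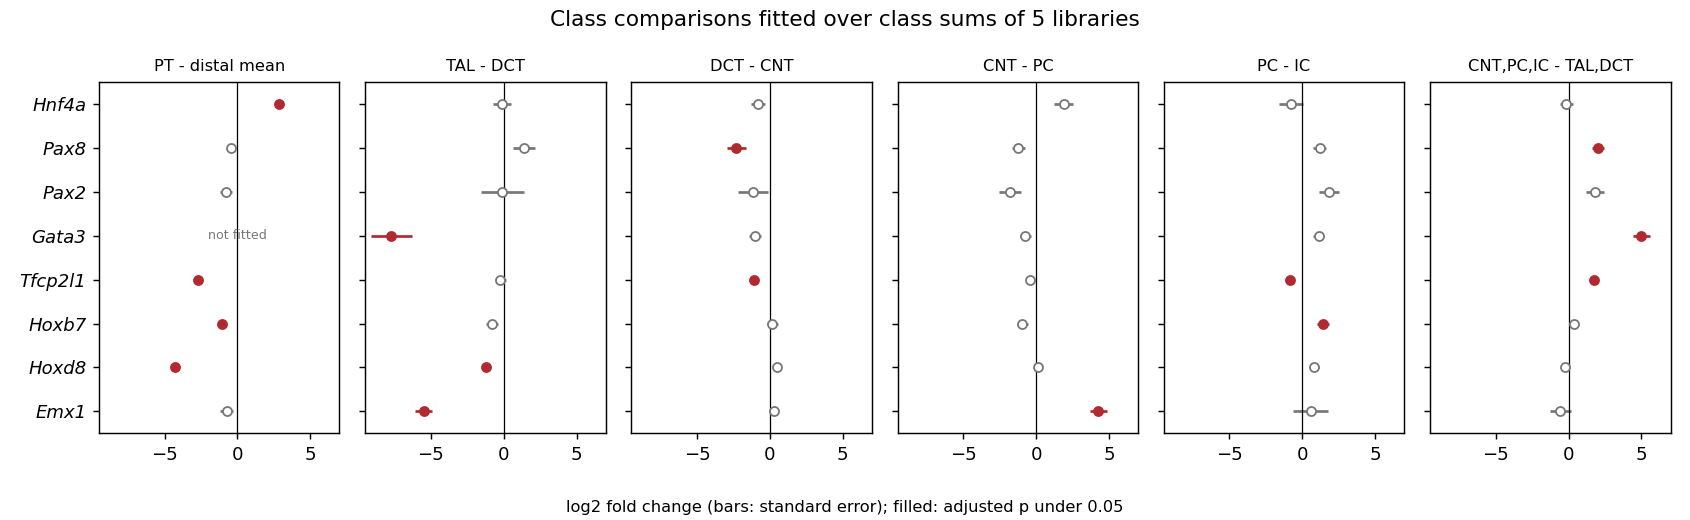
Log2 fold change (x axis) of each factor (y axis) in 6 comparisons of classes from 1 edgeR fit over 28 class sums of 5 libraries, with standard errors as bars and filled points where the adjusted p was under 0.05. Hnf4a stood at 2.83 and Hoxd8 at -4.31 in the PT-like comparison, and Emx1 at -5.50 and 4.28 in the comparisons on either side of the DCT-like and CNT-like classes; the fitted Gata3 value against TAL-like cells comes from a class with 0 UMIs and gives no size.

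In PC-like cells of the inner medulla, Tfcp2l1, Hoxd8 and Pax2 were 2-fold or more from the cortex, as were 43.8% of all genes measured. Its 473 PC-like cells fell into cluster 9 (424 cells) and cluster 10 (49 cells), and cluster 10 also held the PC-like cells of the other regions. PC markers took 3.52% of UMIs in cluster 9 and 6.22% in cluster 10 of the inner medulla, each with 9 of 10 markers detected, against 2.99% to 5.40% in cluster 10 elsewhere. Cluster 9 was low in several of these markers: Hsd11b2 stood at 186 CPM there and at 4655 to 6436 CPM in cluster 10 of the other libraries, Scnn1b at 21.4 against 419 to 509 CPM, Scnn1g at 17.9 against 269 to 545 CPM, and Aqp3 at 1586 against 4364 to 7059 CPM. Kcne1 had 0 UMIs in both inner medulla clusters and 215.7 CPM or more in the other libraries. Aqp2, the water channel, was at 21985 CPM in cluster 9, within the 12913 to 23707 CPM of the other libraries. No test compares regions, since each is 1 library.

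Tfcp2l1 was 7.22-fold lower in inner medulla than in cortex PC-like cells (21 against 25 UMIs in sums of 300622 and 49562 UMIs, 95% interval 3.88 to 13.6) and 7.55-fold lower than in the outer medulla (4.39 to 13.4). The low level belonged to cluster 9, with 14 UMIs and 50.02 CPM, while cluster 10 of the same library had 7 UMIs and 337 CPM, a ratio of 0.148 (0.0560 to 0.434). Restricted to cluster 10, the ratio of inner medulla to cortex was 0.669 (0.244 to 1.59). IC-like cells of the same library had 986 CPM of Tfcp2l1, the top of that class. Thus within 1 library Tfcp2l1 was low in 1 cluster of PC-like cells and high in IC-like cells.

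Hoxd8 was 4.31-fold lower in inner medulla than in cortex PC-like cells (45 against 32 UMIs, 2.65 to 6.94) and 3.68-fold lower than in the outer medulla (2.39 to 5.68). Unlike Tfcp2l1 it was as low in cluster 10 of the inner medulla, with 3 UMIs and 145 CPM, as in cluster 9, with 42 UMIs and 150 CPM. Pax2 was 3.21-fold higher than in the cortex (78 against 4 UMIs, 1.21 to 12.1) and 7.22-fold higher than in the outer medulla (78 against 3 UMIs, 2.38 to 35.7), with 247 CPM in cluster 9 and 434 CPM in cluster 10. Such levels were not particular to PC-like cells there. IC-like cells of that library had 197 CPM (4 UMIs), and its cluster 13, described below, had 422 CPM (22 UMIs). Nearly empty barcodes of the inner medulla held 136 CPM of Pax2, 186 of Pax8 and 241 of Hoxb7, against 6.95 to 13.8, 31.4 to 38.2 and 46.9 to 91.8 CPM in the other libraries. The part of these barcodes in the Pax2 level of inner medulla cells was estimated at 3.52 CPM for PC-like and 16.6 CPM for IC-like cells.

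By the 2-fold rule, 1 of 6 members measured was higher (Pax2) and 2 were lower (Tfcp2l1, Hoxd8) in inner medulla PC-like cells against the cortex, where 43.8% of genes passed, 29.4% higher and 14.4% lower. The members' 3 of 6 is near that background. Against the outer medulla the same members passed, where 36.3% of genes did. Outer medulla against cortex gave 0 of 5, where 23.6% passed, and whole kidney 2 against 1 gave 0 of 4, where 22.2% passed. Gata3 (1.67, 0.869 to 3.58), Pax8 (1.77, 0.860 to 4.24) and Hoxb7 (1.88, 0.912 to 4.47) had inner medulla to cortex ratios whose intervals include 1. With TMM factors, which shift the comparison by 0.30 on the log2 scale, those 3 also reached 2-fold, and 6 of 6 passed, 4 higher and 2 lower, where 48.0% of genes passed, 38.6% higher and 9.43% lower.

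**Figure D4:**
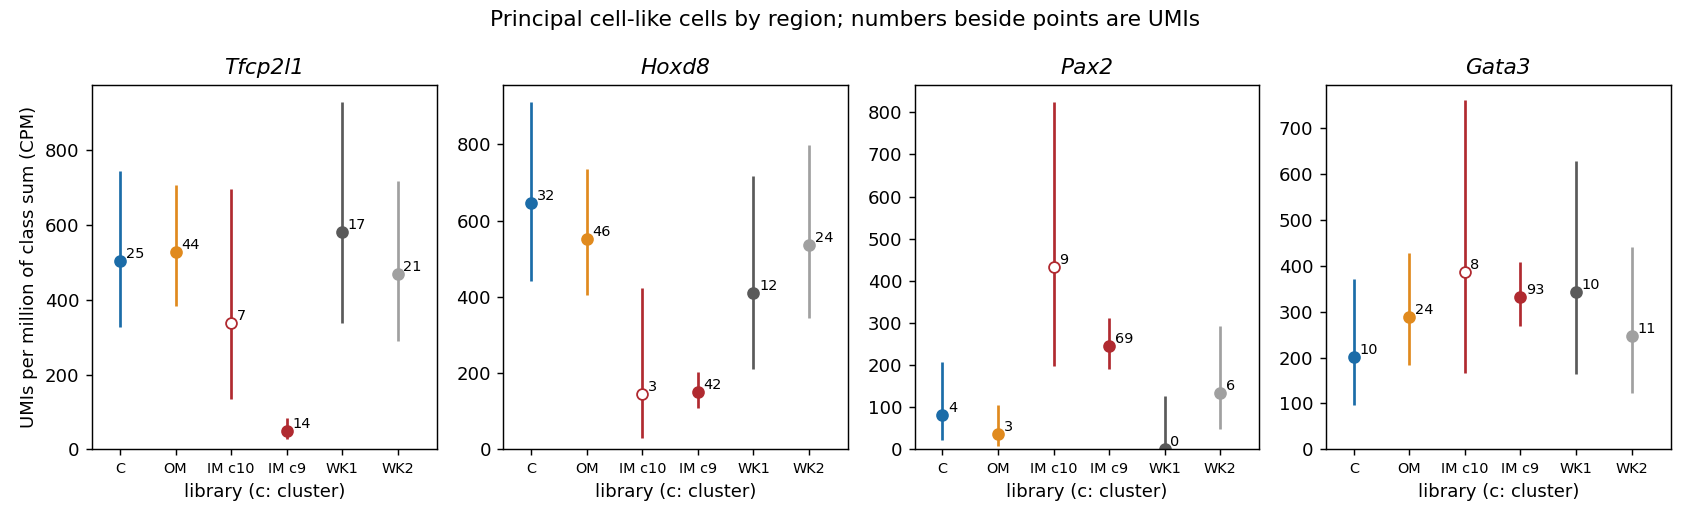
Level (CPM, y axis) of Tfcp2l1, Hoxd8, Pax2 and Gata3 in PC-like cells by library (x axis: C cortex, OM outer medulla, IM inner medulla split into clusters 10 and 9, WK whole kidney), with UMI counts beside the points and exact Poisson 95% intervals as bars; the open point is cluster 10 of the inner medulla. Tfcp2l1 was at 50.02 CPM in cluster 9 and at 337 CPM in cluster 10, Hoxd8 was near 150 CPM in both, and Gata3 stayed between 202 and 386 CPM throughout.

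A further cluster of the inner medulla, number 13, carried Pax2, Pax8 and Hoxb7 at levels near those of its collecting duct cells. The cluster scored highest for thin limb markers, of which 2 were seen in 10% of its cells or more, too few for a class name, and 132 of its 162 cells came from the inner medulla. There it held 22 UMIs and 422 CPM of Pax2, 21 UMIs and 402 CPM of Pax8 and 22 UMIs and 422 CPM of Hoxb7. TAL-like cells of the same library had 29.4, 58.8 and 58.8 CPM. The ratios were 14.3 for Pax2 (95% interval 3.53 to 126), 6.85 for Pax8 (2.31 to 27.4) and 7.17 for Hoxb7 (2.44 to 28.6). Gata3 had 1 UMI, Tfcp2l1 0 and Hoxd8 2 in this cluster, so of the factors high in inner medulla PC-like cells it shared the Pax genes and Hoxb7 and not Gata3. PC markers made up 0.215% of its UMIs.

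In TAL-like cells 3 members had 10 UMIs or more in the cortex and another region together. The cortex, outer medulla and inner medulla libraries had 415, 218 and 191 CPM of Hoxd8 (14, 23 and 13 UMIs). For Tfcp2l1 they had 208, 142 and 44.1 CPM, and for Hoxb7 178, 85.2 and 58.8 CPM. These are values of libraries, and whether the TAL-like cells of the inner medulla library lay in that region was not tested. By the 2-fold rule 1 of 3 was lower in the outer medulla than in the cortex (Hoxb7, ratio 0.479, 0.152 to 1.63), where 26.8% of genes passed either way and 9.76% were lower, and 3 of 3 were lower in the inner medulla, where 31.5% passed and 14.4% were lower. The intervals of the outer medulla ratios all include 1, as do 2 of the 3 for the inner medulla, the exception being Tfcp2l1 (0.212, 0.0354 to 0.931). Differences between regions in the other ratios were not detectable at this depth.

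The other listed factors placed the members among their peers. The 4 proximal factors reported were all higher in PT-like cells than in the distal mean: Maf (2.76 on the log2 scale), Nr1h4 (2.81), which encodes the bile acid receptor FXR, Ppara (2.22), a fatty acid sensor, and Hnf4g (4.08), the close relative of Hnf4a. Maf averaged 689 ± 88.7 CPM in PT-like cells (SD, n = 5) and at most 177 CPM in a distal class. Of 10 loop and distal factors fitted and reported, 1 was higher, Irx3 (2.17), and 4 were lower, Tfap2b (-5.09), Pou3f3 (-3.00), Esrrb (-4.29) and Sim1 (-5.82). Irx3 was not above every distal class, with 68.9 CPM in PT-like and 72.5 in TAL-like cells. In the other distal classes it averaged 6.59 to 28.4 CPM. Of 7 collecting system factors fitted, 4 were lower, Mecom (-5.66), Foxq1 (-5.38), Elf3 (-2.85) and Foxi1 (-3.48), and none was higher. The calls of these lists did not change under 3 other scalings of the sums, except that Esrrg was also lower with class totals. The list medians were 2.79, -0.65 and -2.85, beside 0.01 over all genes. Hnf4g, Esrrb, Sim1, Elf3 and Foxi1 are named outside the naming rule, after their values were seen.

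Of 19 Hox genes fitted beside the members, 5 were higher in PT-like cells than in the distal mean, 10 were lower and 4 were not called. Counted by gene cluster, 3 of 5 Hoxa and 2 of 3 Hoxc genes were higher, and 6 of 7 Hoxb and 4 of 4 Hoxd genes were lower, a grouping made after the values were seen and a difference that was not tested. Those higher were of the Hoxa and Hoxc clusters, among them Hoxa10 (1.34 on the log2 scale), Hoxa9 (0.71), Hoxa7 (0.82) and Hoxc9 (1.58), with Hoxc6 (1.90) named after its value was seen. The distal mean is a mean of logs over classes, and PC-like cells held 1 Hoxa7 UMI and 0 of Hoxc9. By mean level Hoxa10 was highest in PT-like cells (85.8 CPM, at most 54.2 in a distal class). Hoxa7, however, averaged 38.3 CPM in PT-like and 62.9 in DCT-like cells. Hoxa9 averaged 88.2 CPM in PT-like and 122 in CNT-like cells, and Hoxc9 23.6 in PT-like and 40.5 in IC-like cells. All 10 that were lower were of the Hoxb and Hoxd clusters, among them Hoxb6 (-2.91), Hoxb8 (-2.01), Hoxb9 (-3.95) and Hoxd9 (-3.46), the same direction as the members Hoxb7 and Hoxd8. By scaling of the sums, between 3 and 6 were higher, all of the Hoxa and Hoxc clusters, and between 8 and 11 lower, all of the Hoxb and Hoxd clusters; Hoxa7 lost its call with DESeq2 size factors, and Hoxa7 and Hoxa9 with class totals. With classes from a marker score per cell Hoxa10 alone was higher and 8 were lower. The median of the list was -1.71. Hoxd9, which lies beside Hoxd8, averaged 265 ± 64.5 CPM in CNT-like and 174 ± 43.4 CPM in DCT-like cells (n = 4 each), and 8.47 ± 5.33 CPM in PT-like cells (n = 5). Of the 7 podocyte and stromal factors, 1 was fitted, and it was not called.

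TAL-like against DCT-like cells called Ehf, Foxq1, Irx1, Irx3, Tfap2b and Hoxc6 higher, and Lhx1 and Hoxb8 lower. Hoxb8 lost its call with class totals, and Tfap2b with factors from all genes. Lhx1 averaged 167 ± 37.1 CPM in DCT-like cells (SD, n = 4) and 1.89 ± 4.23 in TAL-like cells (n = 5). DCT-like against CNT-like cells called Lhx1 higher and Ehf, Gata2 and Maf lower, of which Maf lost its call under each of 3 other scalings. CNT-like against PC-like cells called Maf, Hoxa7, Hoxa9, Hoxc10 and Hoxd10 higher and Ehf, Elf5, Foxq1, Emx2, Hoxb9 and Hoxd4 lower, so that the Emx genes ran opposite to each other: Emx2 averaged 294 ± 85.0 CPM in PC-like and 28.6 ± 21.2 CPM in CNT-like cells. Gata2 was called higher in CNT-, PC- and IC-like cells than in TAL- and DCT-like cells, as Gata3 was, with 0 UMIs of Gata2 in TAL-like cells and 288 ± 126 CPM in PC-like cells (n = 5). Unlike Gata3 (77.6 CPM), Gata2 averaged 2.03 CPM in DCT-like cells. PC-like against IC-like cells called Ehf, Elf5, Gata2, Emx2, Tfap2b and Hoxd4 higher and Foxi1, the factor of the intercalated cell lineage, Dmrt2, Hmx2, Hoxa7 and Hoxc9 lower. Irx1, Hoxc6, Hoxd4, Hoxd10, Foxi1, Dmrt2 and Hmx2 are named here after their values were seen.

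**Figure D5:**
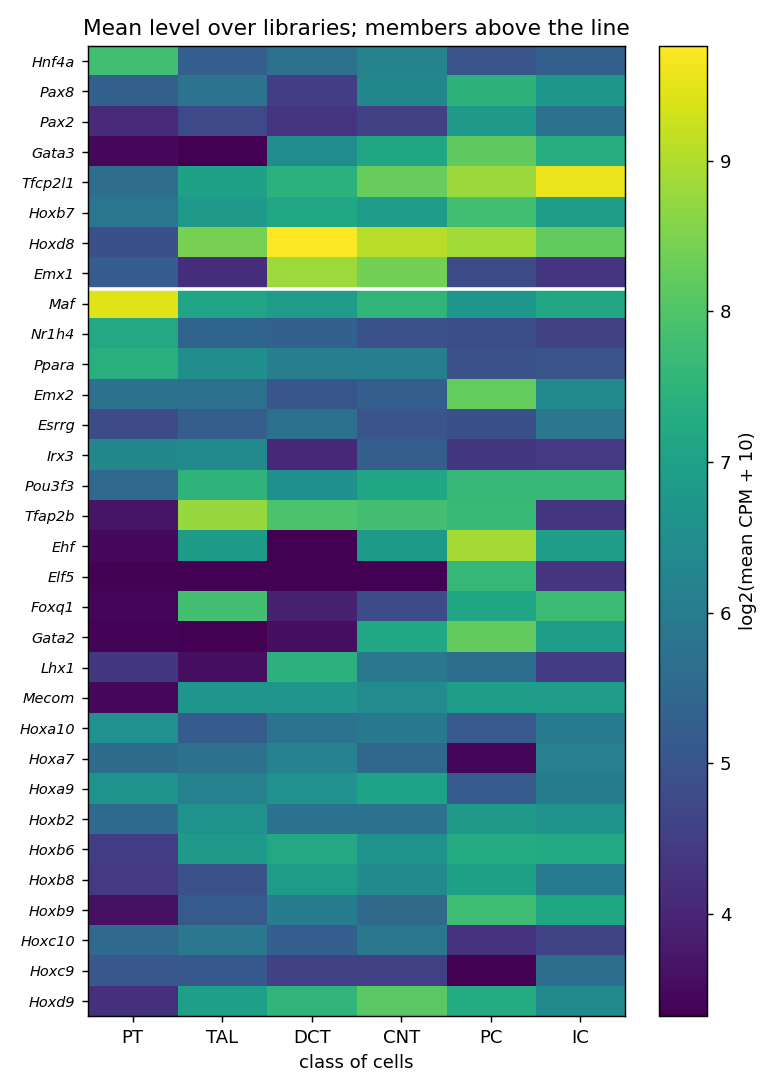
Mean level over libraries, as log2(mean CPM + 10) in colour, of the 8 members (above the white line) and 24 other listed factors (below) in the 6 classes of tubule cells (x axis). Hnf4a and Maf are brightest in PT, Emx1 in DCT and CNT, and Emx2, Gata2 and Ehf in PC.

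Genes with the class pattern most like each member were ranked by Pearson r of log2(CPM + 10) over the 8 named classes, as a description with no p, since classes share libraries and depth. Beside the 6 tubule classes these include endothelial-like and podocyte-like cells. The podocyte-like class was 1 sum of 24 cells with 0 UMIs of each member, where 3 counts would be 268 CPM. The free RNA estimate of endothelial-like sums outside the inner medulla was 79.4% to 100%. For Hnf4a they were Acaa1b (r = 0.993), a peroxisomal thiolase, Slc18a1 (0.990) and Gpt2 (0.987). Emx1 ran with Slc12a3 (0.940), the thiazide-sensitive cotransporter that marks the distal convoluted tubule, Lhx1os (0.936) and Sgms2 (0.887). Gata3 was nearest to Rhcg (0.969), an ammonia channel, Ucp2 (0.956) and Sh3bgrl3 (0.949), and Tfcp2l1 to Tmprss2 (0.985), Cds1 (0.984) and Rragd (0.983). Hoxd8 was nearest to Stk39 (0.980), the kinase that regulates the thiazide-sensitive cotransporter, Eno1 (0.974) and Scnn1a (0.969), a subunit of the epithelial sodium channel. Pax8 ran with Prkab1 (0.964), Pax2 with Camkk2 (0.958) and Hoxb7 with Thrap3 (0.992), ranks that rest on few UMIs.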

How the data were processed

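Drop-seq libraries of mouse kidney cortex, outer medulla and inner medulla (1 each) and whole kidney (2) were used as whole-number UMI counts per gene and barcode, as the authors deposited them. The submitters' processing notes name the build mm9 and Seurat 2.3.1 without their roles, and the aligner, gene annotation and counting strand were not given in the sources used here. Deposited tables held 11443, 10895, 4035, 12648 and 15051 barcodes with 3527638, 2715993, 869732, 2910597 and 4169677 UMIs in the order cortex, outer medulla, inner medulla, whole kidney 1 and 2.

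Barcodes with at least 200 genes were kept as cells (3070, 2422, 894, 2409 and 3304 after doublet calls). Scrublet in scanpy 1.11.5 marked 22 of 12121 as doublets, too few to have worked, so doublets remain, and removal of the 5% with the highest scores was tried as an alternative. Cells were clustered (leidenalg 0.10.2, 2000 variable genes, 30 components, 15 neighbours, resolution 1.0) without 72 listed transcription factors. A cluster took the name of its highest scoring marker list where at least 3 markers were seen in 10% of its cells.

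UMIs were summed per class and library (at least 20 cells and 5000 UMIs, 28 sums) and fitted with edgeR 4.0.16 (R 4.3.3; quasi-likelihood test, library as a block, genes with at least 20 UMIs, TMM factors from genes with at least 5 expected UMIs in the shallowest sum, Benjamini-Hochberg threshold 0.05), after the script was tested on simulated data. The sums of 1 library come from 1 preparation, and nothing says that libraries are from separate animals, so p-values measure only the spread between these libraries, which may be technical. Regions, 1 library each, were not tested: exact Poisson intervals for levels and exact conditional binomial intervals for ratios (95%) cover counting error only, and a 2-fold rule was applied to genes with at least 10 UMIs in both sums together. Where a count was 0, the floor is 3 counts. Levels summed over libraries weight each library by its UMIs, so ratios of such levels also carry differences between libraries.

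The members and lists were chosen with earlier results of these data known. Named genes are the members, up to 25 other listed factors with at least 20 UMIs in a tubule class, in order of UMIs, and the 3 genes nearest to each member. Of the listed factors, 2 are not reported here. The alternatives were other factors, a DESeq2 1.42.0 Wald test, no filter, classes from a marker score per cell, a minimum of 500 genes, other cluster resolutions, subtraction of free RNA, larger sums, no block, thinning to 300 UMIs and leaving out each library. Added after seeing the data were factors from all genes, class totals, classes of each side summed, and fits or ratios without cluster 9.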

Additional observations from a re-analysis of the deposited data

Results flagged for a closer look

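Barcodes with at least 100 and under 200 detected genes, left out of every comparison, held UMIs of all 8 factors. Over the 5 libraries they carried 358 UMIs of Hnf4a, 347 of Hoxd8, 198 of Hoxb7, 188 of Tfcp2l1, 132 of Emx1, 116 of Pax8, 69 of Gata3 and 49 of Pax2. These counts are above the limit of 3 that a count of 0 allows. They come from data outside the main measurement, and which cells or how much free RNA they stand for was not tested.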

How the results depend on the processing

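Counts of members called stayed within 1.5 times of the reported one in 104 recalculations and moved further in 42, and of the values of single members 287 kept their side of the threshold or their size, 39 were weaker, 4 moved and 1 reversed, Hoxd8 in TAL-like against DCT-like cells (0.035 with a marker score per cell). The cause was not tested for any of them. For PT-like against distal cells, 8 members and not 4 were called with the classes of each side summed. For TAL-like against DCT-like cells, 0 and not 3 were called with a marker score per cell. For DCT-like against CNT-like cells, where 2 were called, the count was 1 with the DESeq2 Wald test or resolution 2.0 and 0 with a marker score per cell, no library block, factors from all genes or class totals. For CNT-like against PC-like cells, where 1 was called, it was 6 with a marker score per cell, 5 at resolution 0.5 or with no library block, and 0 with 500 genes per cell. For PC-like against IC-like cells, where 2 were called, it was 4 with larger sums or no library block, 1 with no filter, resolution 2.0, free RNA subtracted, class totals or without cluster 9, and 0 with the DESeq2 Wald test or 500 genes. For CNT-, PC- and IC-like against TAL- and DCT-like cells, 5 and not 3 were called with the classes summed. Leaving out 1 library gave 0 to 2 calls for DCT-like against CNT-like cells and 0 to 3 for PC-like against IC-like cells. By the 2-fold rule, inner medulla against cortex in PC-like cells gave 6 and not 3 with a marker score per cell or TMM factors. Outer medulla against cortex gave 1 and not 0 in PC-like cells with a marker score per cell, thinning, free RNA subtracted or TMM factors. In TAL-like cells it gave 2 with a marker score and 0 without the top doublet scores, against 1 reported. In PT-like cells it gave 2 and not 0 with 500 genes or thinning and 1 with a marker score or free RNA subtracted. Restricted to cluster 10, Tfcp2l1 stood at 0.669 of the cortex and 0.640 of the outer medulla, and after thinning the inner to outer medulla ratio was 3.64 for Pax8 and 0.173 for Hoxd8. Scaling moved the split of genes called higher and lower: 1990 and 1622 for PT-like against distal cells became 3200 and 971 with factors from all genes and 1558 and 2338 with class totals, as the median of all genes went from 0.01 to 0.37 and -0.20. It was 129 and 100 for TAL-like against DCT-like cells (98 and 139 with factors from all genes), 74 and 179 for DCT-like against CNT-like cells (121 and 112, and 138 and 115 with class totals), 348 and 248 for PC-like against IC-like cells (263 and 303 with class totals) and 520 and 324 for the last comparison (257 and 459, and 319 and 405 with class totals). Resolution 0.5 and 500 genes gave no DCT-like class and so no value for comparisons that use it. The class comparisons are within libraries, which the fit took as a block. Between regions, no paired analysis was possible because each region has 1 library and the groups share fewer than 2 replicate numbers. Depth limits Pax2 most, with 200 UMIs in all cells.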
